A study of Homo sapiens with 4 samples.

Results

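Some of the human genome assembly hg38 lies on short scaffolds that could not be joined to a chromosome at a known position. Unlocalized scaffolds are assigned to a chromosome without a place on it, and unplaced scaffolds to no chromosome. The peaks described here are those on such scaffolds, outside the 2 scaffolds that carry ribosomal RNA genes (rDNA). They were taken by the name of the scaffold alone and number 115 of the 406 peaks of replicate A (28.3%) and 88 of the 395 peaks of replicate B (22.3%), on 17 scaffolds.

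The study asked where on the genome the cell-penetrating peptide SVS-1 is found. SVS-1 is a designed, positively charged peptide that is unfolded in water and takes up a beta-hairpin shape on the negatively charged membranes of cancer cells. A549, an established line from a human lung adenocarcinoma, was treated in serum-free medium with SVS-1 that carried a biotin tag at its N-terminal end (15 µM, 1 h, 37 °C). The treated cells were trypsinized, kept overnight in fresh flasks, fixed for 15 min in 1% paraformaldehyde and sonicated, and the tagged peptide was captured on streptavidin with the DNA bound to it (Chem-seq). All cells of both groups are A549 and went through the same treatment: the 2 capture libraries, replicates A and B, hold the streptavidin-bound DNA, and the 2 input libraries hold lysate DNA set aside before capture. Only the capture libraries, each with its own list of peaks, were analysed here, so no background from input DNA stands beside the values, and cells without peptide are not among the groups. There are 2 libraries of 1 group, so no test between groups was possible, and the values below are descriptions. The series names A and B biological replicates without describing how their cultures were separated. Depth in reads is unknown.

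Sequence that resists placement in an assembly is often repeated. Satellite DNA, the long tandem repeats that build centromeres and the heterochromatin around them, makes up much of it, and the short arms of the acrocentric chromosomes (14 and 22 among those below) are rich in it. Repeats of this kind are compacted and largely silent, and a short read from one copy can align to many others. Whether the covered stretches are satellite was not checked, because no genome sequence was used here; they are therefore called scaffold peaks.

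Most scaffold peaks were narrow and scored under 10. They numbered 101.5 ± 19.1 per list (mean ± SD, n = 2 libraries) and covered 83.3 kb in A against 58.6 kb in B (70.95 ± 17.5 kb, n = 2). That was 19.9% of all the length covered by peaks in A and 11.6% in B. B alone had peaks on chromosome Y, and without them its share was 14.2%, with 412.7 kb covered in all against 417.8 kb in A. The median width was 500 bp in both lists, with quartiles of 300 and 800 bp in A and of 300 and 625 bp in B. The widest scaffold peak measured 5500 bp (A) and 4900 bp (B). The authors' score per peak, whose scale is not stated and which is at least 4 throughout, had a median of 5.99 in A and 5.555 in B (5.77 ± 0.31, n = 2). Scores of at least 10 were held by 18.3% of the scaffold peaks in list A and by 15.9% in list B. On the other chromosomes they were held by 34.6% and 36.8% of the peaks. The other chromosomes here are all assembled chromosomes without Y and without 21, where rDNA lies. This class was not cleared of further chromosomes that may carry rDNA. Its peaks also had higher medians, 6.97 in A and 7.84 in B. The difference between these classes was not tested, since peaks of one scaffold are not independent.

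Wider peaks scored higher. Over the scaffold peaks, width and score had a Spearman's rho of 0.87 in A (n = 115) and 0.88 in B (n = 88), as a description across peaks that share a library and, often, a scaffold. Single windows of 100 bp, the smallest width in the lists, made up 13 scaffold peaks of A and 5 of B.

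Few scaffolds held most peaks. GL000225v1 and GL000216v2 together had 66 peaks of A (57.4%) and 53 of B (60.2%). Of the 17 scaffolds, 9 are assigned to a chromosome (1, 4, 14, 17 or 22) and 8 are unplaced. Both replicates had a peak on 13, A alone on 4, and B alone on 0. A had more peaks than B on 12 scaffolds, as many on 4 and fewer on 1, KI270709v1.

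**Figure D1:**
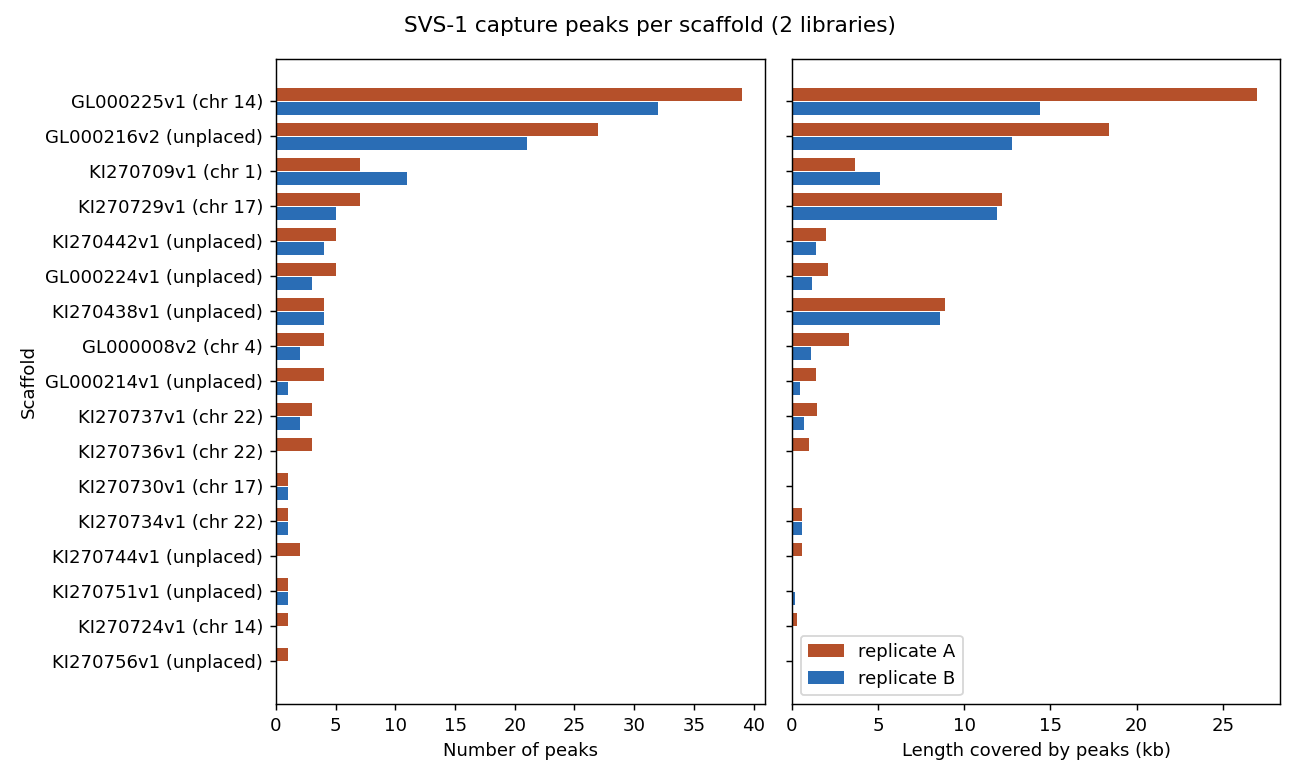
Number of peaks (left) and length covered by peaks in kb (right) on each of the 17 scaffolds, in replicate A (upper bar) and replicate B (lower bar). GL000225v1 has the most peaks in both lists (39 and 32), and KI270438v1 covers 8.90 and 8.60 kb with only 4 peaks in each.

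GL000225v1, an unlocalized scaffold of chromosome 14, was the richest. Its 39 peaks of A and 32 of B were spread over positions 10701 to 137800, with a median gap of 1850 bp (A) and 2500 bp (B). They covered 27.0 kb in A against 14.4 kb in B, 12.8% and 6.82% of the 211173 bp of the scaffold. The 73.4 kb after the last peak and the 10.7 kb before the first had none in either list. Scores ran from 4.01 to 13.18 in A, where the best ranked 78 of 406, and from 4.00 to 8.18 in B, where the best ranked 171 of 395. The shared locus with the highest score in A lay at 67101 to 67800 (13.18 in A, 6.30 in B), and that with the highest in B at 112201 to 113200 (11.64 and 8.18). The assembled chromosome 14 itself had 0 peaks in A and 1 in B, at 34546601 to 34546800 with a score of 4.04, so nearly all peaks given to chromosome 14 lay on this scaffold. A second scaffold of that chromosome, KI270724v1, had 1 peak in A (4.28) and 0 in B.

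GL000216v2, an unplaced scaffold, had its peaks in 3 separate places. At one end, positions 1 to 28100 held 11 peaks of A and 10 of B, which covered 31.7% and 23.8% of that stretch. Far from it, positions 142201 to 174700 held 15 peaks of A and 10 of B and were covered to 26.5% and 16.0%. Between them, 51.6 kb from the first stretch and 61.5 kb from the last, stood 1 isolated peak at 79701 to 80700. Its score was 29.50 in A against 26.91 in B, and it was 900 bp wide in both. No other peak of the scaffold scored as high: the best of the first stretch reached 18.75 in A and 14.34 in B, at positions 1 to 2300, and the best of the last 12.30 and 7.79. The whole layout of 2 dense stretches, 1 isolated peak and peak-free sequence between them was present in both lists.

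**Figure D2:**
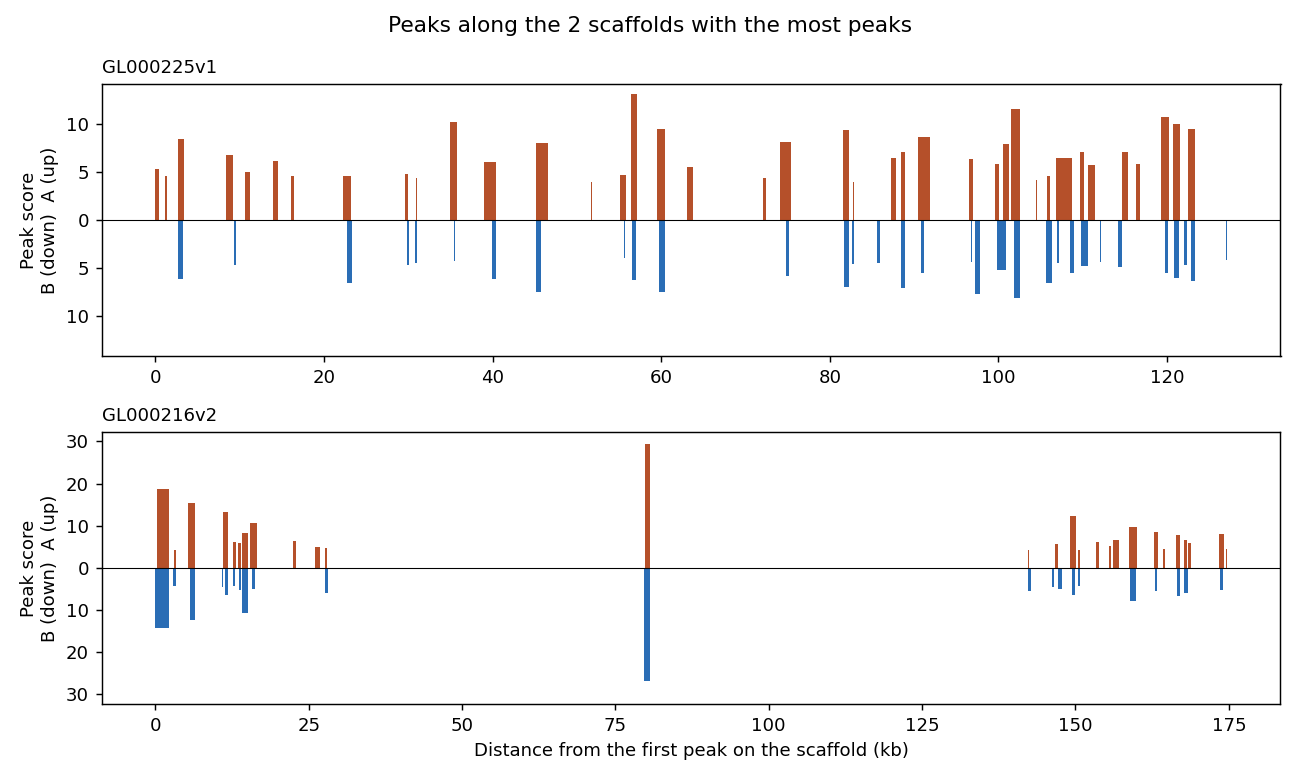
Peaks along GL000225v1 and GL000216v2, by distance in kb from the first peak of either list; bar width is the peak's width and bar height its score, upward for replicate A and downward for replicate B. GL000225v1 shows many peaks of up to 13.18 over 127.1 kb, and GL000216v2 shows 2 groups with 1 isolated peak of 29.50 (A) and 26.91 (B) between them.

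KI270438v1, also unplaced, held the strongest scaffold peaks in a single short stretch. All 4 peaks of A and all 4 of B lay between 101101 and 112500 and covered 78.1% and 75.4% of these 11.4 kb. The locus at 108401 to 112500 scored 74.01 in A, where it was 1 peak, and 75.79 in B, where it was 2. That at 103301 to 107100 scored 69.57 and 57.58, and one at 101101 to 102200 scored 12.07 and 11.39. The first of these ranked 12 in A and 15 in B. The second ranked 14 and 19, and these were the only scaffold peaks among the 20 highest of either list. The 1 peak found here in A only, between the strong loci, scored 4.73.

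KI270729v1, an unlocalized scaffold of chromosome 17, resembled it in having wide and strong peaks. A had 7 peaks and B 5 between 701 and 28200, covering 12.2 and 11.9 kb, or 44.4% and 43.3% of the stretch. Its strongest loci were those at 701 to 6200, with scores of 42.25 (A) and 33.81 (B), and at 27201 to 28200, with 41.58 and 30.18. Chromosome 17 itself had 18 peaks in A and 10 in B, with top scores of 35.63 and 27.19, so its highest score in each list lay on the scaffold. Its second scaffold, KI270730v1, had 1 peak in each list (4.04 and 4.05), at different positions.

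KI270734v1, an unlocalized scaffold of chromosome 22, had a single peak, at 121201 to 121800. It began and ended at the same window in both lists, with a score of 32.61 (A) and 40.04 (B). It was the only scaffold locus above 10 in A whose score was higher in B, apart from the strongest locus of KI270438v1. On the other scaffolds of chromosome 22, KI270737v1 had 3 peaks in A and 2 in B, with top scores of 9.34 and 5.54, and KI270736v1 had 3 in A, up to 6.80, and 0 in B.

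On KI270709v1, an unlocalized scaffold of chromosome 1, B had more peaks than A. Its 11 peaks in B covered 5.10 kb and its 7 in A 3.70 kb, all between 1001 and 16800, with top scores of 6.80 and 8.39. The best shared locus in A lay at 6601 to 8500 (8.39 in A, 6.16 in B). In B 4 peaks lay before the first one of A, between 1001 and 4100, with scores from 4.07 to 5.96.

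On KI270442v1 a peak stood at the very start, at 1 to 200 (7.42 in A, 4.73 in B), and the others followed after 84.8 kb, at 85001 to 95100. The best of these, at 91901 to 92800, scored 12.01 and 11.97. GL000224v1 had 5 peaks in A and 3 in B, all in its first 17.1 kb, and none in the remaining 162.6 kb. Its only shared locus lay at 3501 to 4800 and scored 11.68 and 8.38.

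**Figure D3:**
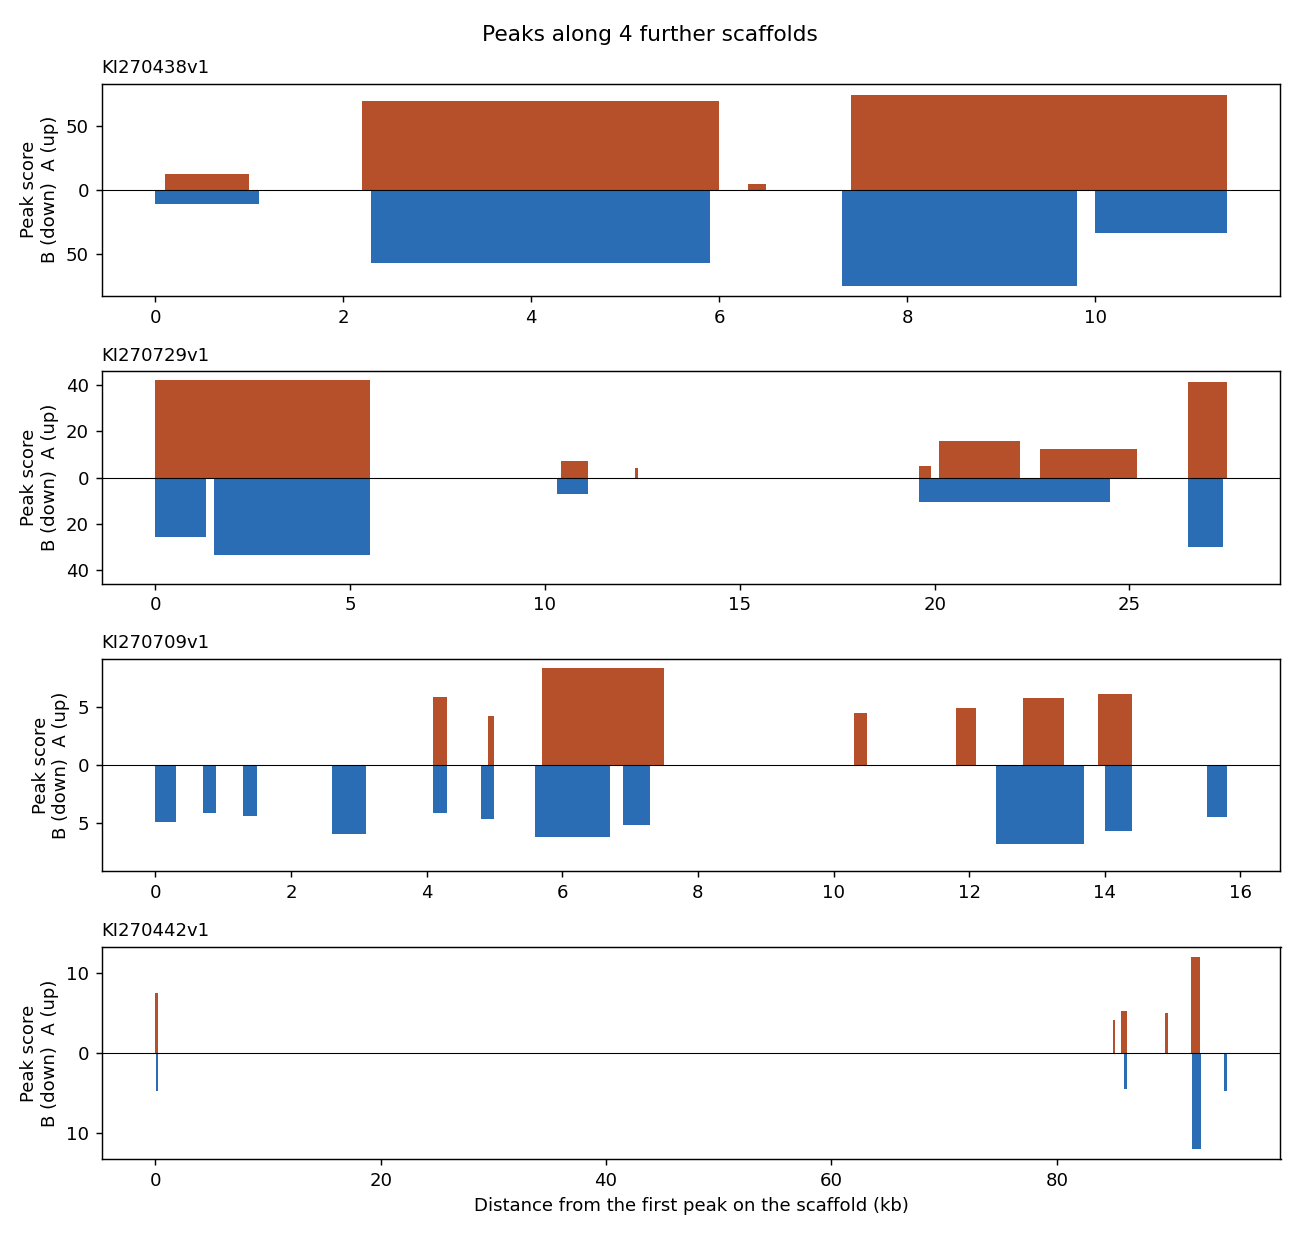
Peaks along KI270438v1, KI270729v1, KI270709v1 and KI270442v1, by distance in kb from the first peak of either list, with score upward for replicate A and downward for replicate B. The scales differ between panels: scores reach 75.79 on KI270438v1 and 8.39 on KI270709v1, where the first 4 peaks are of B only.

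The remaining scaffolds held few peaks. GL000008v2, assigned to chromosome 4, had 4 peaks in A and 2 in B, with top scores of 8.97 and 7.09. GL000214v1, unplaced, had 4 and 1, with top scores of 8.31 and 5.59. KI270751v1 had 1 peak in each (4.13 and 4.24), KI270744v1 had 2 in A (up to 5.02) and KI270756v1 1 in A (4.12).

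How far the replicates had peaks at the same scaffold positions was measured next. Of the scaffold peaks of A, 67 of 115 (58.3%, exact 95% interval 48.7 to 67.4) overlapped a peak of B by at least 1 bp, against 66.3% of all 406 peaks of A. Of those of B, 70 of 88 (79.5%, 69.6 to 87.4) overlapped a peak of A, against 65.6% of all 395 peaks of B, a figure that includes 56 peaks on chromosome Y of which 0 were in A (exact 95% interval up to 6.38%). Peaks overlapped nearly 1 to 1, so the list with more scaffold peaks has the lower share. On the other chromosomes the shares were 64.5% in A (57.6 to 70.9) and 77.9% in B (71.3 to 83.6), so the intervals of the scaffold peaks overlapped with theirs in both lists. These intervals cover counting error over peaks only. They take peaks as independent, which peaks of one scaffold or chromosome are not, so whether they overlap decides nothing about the shares. The 2 lists had 47.1 kb of scaffold in common, which was 56.5% of the scaffold length covered in A and 80.4% of that in B. It was 49.7% of the length covered in either, against 70.6% on the other chromosomes.

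**Figure D4:**
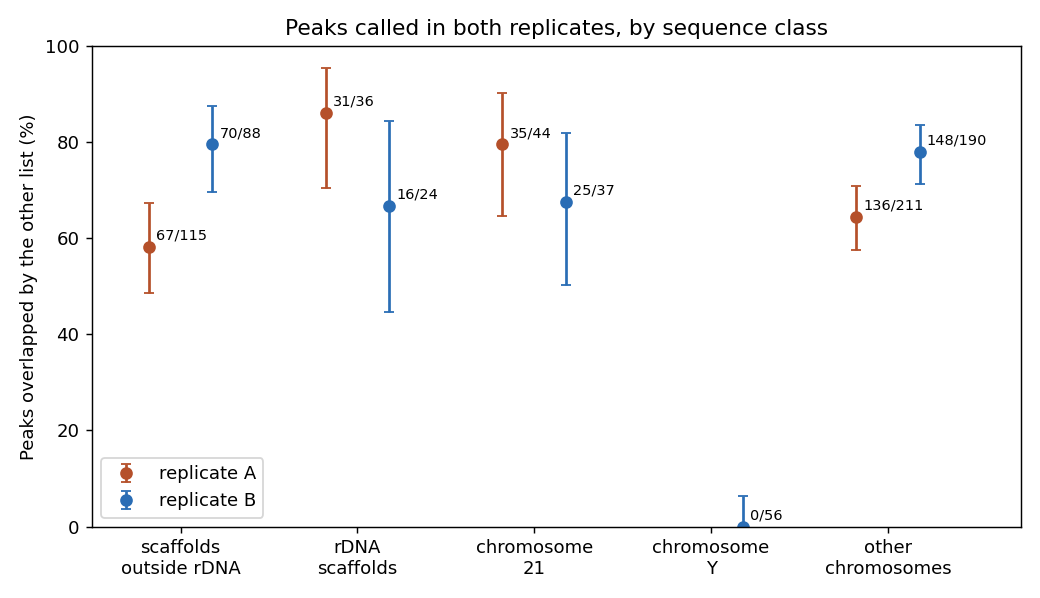
Share of peaks (%) that overlap a peak of the other list by at least 1 bp, by class of sequence, with exact 95% intervals over peaks; the labels give peaks overlapped of all peaks, and replicate A has no peak on chromosome Y. On scaffolds outside rDNA the share is 58.3% in A and 79.5% in B, near the 64.5% and 77.9% of the other chromosomes.

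Overlap went with score, which itself went with width, and the part of each was not tested. Scaffold peaks found in 1 list only had a median width of 300 bp in A and in B, against 500 bp over all scaffold peaks. In A 13 of the 41 scaffold peaks scoring under 5 were shared (31.7%), 33 of 53 scoring 5 to 10 (62.3%) and 21 of 21 scoring at least 10. In B the same classes gave 20 of 36 (55.6%), 36 of 38 (94.7%) and 14 of 14. The other chromosomes gave 17.1%, 82.3% and 98.6% in A and 31.3%, 87.5% and 100% in B. No scaffold peak found in 1 list only reached 10. The highest such peak of A scored 7.08, at 125401 to 126100 on GL000225v1, where it directly adjoined a peak of B. The highest of B scored 7.75, at 107901 to 108500 on the same scaffold, 200 bp from a peak of A. Of the 48 unshared scaffold peaks of A, 14 lay within 1 kb of a peak of B and 7 lay on scaffolds where B had none. Of the 18 unshared ones of B, 8 lay within 1 kb of a peak of A. The same counts were not made over all peaks or the other classes, so nothing can be read from them about scaffold peaks in particular.

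Scaffolds differed in how well the lists matched. The length covered in both, as a share of that covered in either, was 100% on KI270734v1 with its single peak, 90.2% on KI270438v1 and 85.4% on KI270729v1. It was 50.7% on GL000216v2, 44.3% on KI270709v1, 41.7% on KI270442v1, 32.3% on GL000225v1 and 17.9% on GL000224v1. On the scaffolds with fewer peaks that had some in both lists, it ran from 0% on KI270730v1 to 50.0% on KI270751v1. In kb, the 2 most peak-rich scaffolds differed most in extent: A covered 12.6 kb more than B on GL000225v1 and 5.60 kb more on GL000216v2. Relative to covered length, some scaffolds with few peaks differed more, such as GL000008v2 with 3.3 kb in A against 1.1 kb in B.

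The overlapping peaks formed 64 shared loci, on 12 of the 17 scaffolds, and 56 of these were 1 peak in each list. Among the 56, starts lay within 200 bp of each other in 42 (75.0%) and ends in 49 (87.5%), with a median distance of 100 bp, which is 1 window of the grid, at both edges. The peak was wider in A at 35 of the 56 loci, equally wide at 6 and wider in B at 15, with medians of 700 and 500 bp.

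Scores at shared loci kept a similar order in both lists, less so among the loci below 10 in A. Over the 64 loci Spearman's rho was 0.71 and Pearson's r of the log2 scores 0.91, as a description without a test, since loci of a scaffold share libraries and possibly reads. Over the 12 scaffolds, each with the highest score of A and the highest of B among its shared loci, rho was 0.93. The scores of A and B could then come from different loci of a scaffold, as on GL000225v1. Within scaffolds, locus by locus, rho was 0.73 on GL000216v2 (n = 18) and 0.35 on GL000225v1 (n = 24), where scores of A spanned only 4.01 to 13.18. Over the 44 loci below 10 in A rho was 0.57. Over the 123 shared loci on the other chromosomes it was 0.89, higher than the 0.71 on scaffolds, and this difference was not tested. The score was higher in A at 48 of the 64 scaffold loci (75.0%), and at 73 of 123 shared loci on the other chromosomes (59.3%). On chromosome 21 and the rDNA scaffolds together it was higher in A at 6 of 40 (15.0%). The scale of the score may differ between the lists, and the difference between these shares was not tested.

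**Figure D5:**
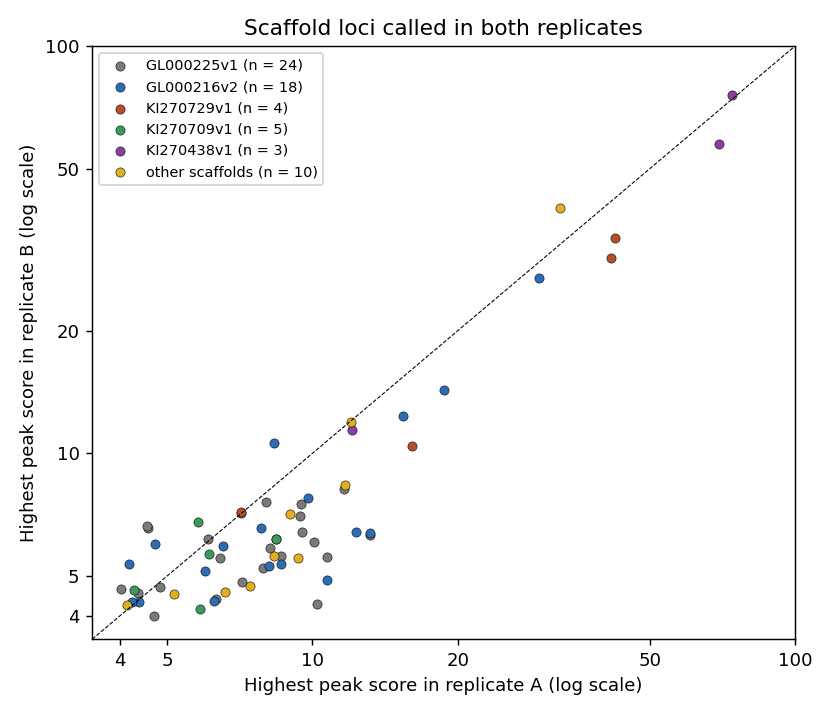
Highest peak score in replicate A (x) and replicate B (y) at the 64 scaffold loci called in both lists, both axes on a log scale; colours mark scaffolds and the dashed line marks equal scores. The loci of KI270438v1 reach 74.01 and 75.79 at the upper right, and 48 loci lie below the line.

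Most neighbouring scaffold peaks lay within a few kb of each other, with typical gaps longer than on the other chromosomes. The median gap from the end of one peak to the start of the next on its scaffold was 1700 bp in A (n = 98 gaps, quartiles 700 and 4300 bp) and 2000 bp in B (n = 75, quartiles 600 and 4750 bp), or 1850 ± 212 bp (n = 2 libraries). On the other chromosomes the median gap was 1400 bp (A) and 1300 bp (B), shorter than on the scaffolds in both lists. Gaps of up to 1 kb made up 37.8% of those in A and 37.3% of those in B, against 42.4% and 45.3% on the other chromosomes. The upper quartile there was 107000 bp (A) and 8075 bp (B), against 4300 and 4750 bp on the scaffolds. A gap on a scaffold cannot be longer than the scaffold, so long gaps are limited there by sequence length. Gaps on the other chromosomes ran up to 139576900 bp (A) and 139575700 bp (B). The upper quartiles are therefore not like for like, and their difference was not tested. The longest gaps, 84800 bp (A) and 85800 bp (B), lay on KI270442v1. How the authors placed reads that align to several copies is not given in the sources used here, and its part in the number of scaffold peaks was not tested.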

How the data were processed

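DNA from 2 capture libraries was described through the lists of peaks that the authors deposited, 1 list per library. The deposited score of each peak has no stated scale. Reads were handled with bcl2fastq 2.17, Trimmomatic 0.36 and Bowtie2 2.2.5 on hg38, per the submitters' processing notes. Neither the peak caller nor the use of the input is given in the sources used here. All peak edges lie on a grid of 100 bp windows. Positions are counted from 1.

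Scaffold peaks are those on sequences whose hg38 name marks them as random or unplaced, without the 2 rDNA scaffolds. A peak counted as shared with an overlap of 1 bp or more, and linked peaks of A and B made 1 locus with the highest score of each list. Stretches on a scaffold were split at gaps above 20 kb. Intervals are Clopper-Pearson (scipy 1.17.1, Python 3.11.15). Lengths of 3 scaffolds (GL000225v1, GL000214v1, GL000224v1) were read, by accession and version, from a file header shipped with Rhtslib; the others were not used. The planned description of base composition and repeat units was not run, for want of sequence. The counts of overlapping peaks and of shared loci were tested on simulated lists in which a peak met at most 1 peak of the other list. Loci of several peaks and the other quantities were not tested in this way. Every scaffold with a peak is named; those with at least 5 peaks in a list, or a peak in the top 10% of a list, are described in full. The peaks, rules and alternatives were chosen with earlier results of these data known.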

Additional observations from a re-analysis of the deposited data

How the results depend on the processing

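No paired analysis was possible because only the capture group has peak lists. Values here are means over both lists, or counts and correlations over both. In some settings fewer peaks or scaffolds enter, and the cause of a change was not tested in any. When each peak had to cover at least 50% of the other, the share overlapped fell from 68.9% to 45.1%. With the top 50% of each list by score, 21 loci were shared (64 with all peaks), 8 scaffolds had peaks in both lists (13 with all), 44.35 kb was covered, the median width was 900 bp and the median gap 4975 bp. With the 2 rDNA scaffolds, 122.2 kb was covered, with a median width of 550 bp and a median gap of 1450 bp. Unplaced scaffolds alone gave 29.15 kb, 6 scaffolds and a rho of 0.85. Assigned scaffolds alone gave 41.8 kb, 7 scaffolds, a median width of 525 bp and a rho of 0.55. That width is the mean of 600 bp in A and 450 bp in B. With all scaffold peaks the median width was 500 bp in both lists, so any change in it exceeded the spread between the lists. Without GL000225v1, 50.25 kb was covered, the median gap was 1450 bp and rho was 0.83. The other 26 values with both lists moved by less than the spread between the lists or the limits set for counts and correlations. The limit for counts was wide: it took in 45 shared loci at 50% overlap and 48 within 1 kb, against 64. It also took in 10 scaffolds with a locus shared at 50% overlap, set against the 13 with peaks in both lists. Of those 13, 12 had a shared locus. Another of the 26 is the share overlapped with the top 50% of each list by score, judged by its mean of 72.4%. There the lists moved apart: the share of A fell from 58.3% to 48.9% and that of B rose from 79.5% to 95.8%. Also among the 26 are rho without the 2 loci farthest from the median (0.68) and the share of covered length without chromosome Y (17.1%, from 15.8%). Both of these were chosen after seeing the data. Each replicate alone only restates the values of A and B and says nothing about stability. Unknown read depth limits what can be said of weak peaks.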

Other observations

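On 8 of the 17 scaffolds the first peak of either list began within 1 kb of the first base of the scaffold. Both lists had such a peak on KI270729v1, GL000008v2, GL000216v2 and KI270442v1. On KI270724v1 and KI270756v1 it was in A only, and on KI270709v1 and GL000224v1 in B only. On 2 of the 8 the first peak began at base 1, in B on GL000216v2 and in A on KI270442v1. The only peak of KI270756v1 lay at 701 to 800. At the other end, the last peak of GL000214v1 ended 1.12 kb before the end of its 137718 bp, and all 4 of its peaks in A lay in the stretch from 120901 to 136600. The ends of the scaffolds whose length was not used here were not examined.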
